A study of Mus musculus with 5 samples.

Results

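Natural killer cells were taken as the cells of mouse heart that carried at least 2 unique molecular identifiers (UMIs, each standing for 1 captured RNA molecule) of Ncr1 and Klrb1c together. They also carried at most 1 UMI over the T cell receptor complex genes Cd3d, Cd3e and Cd3g, at most 1 over Cd8a and Cd8b1, and at most 1 over the B cell and macrophage genes Cd79a, Ms4a1, C1qa, C1qb and C1qc. This gate held 108 of the 38337 cells whose mitochondrial genes took at most 10% of UMIs. It took 24 cells from control library 1 and 18 from control library 2, and 11, 41 and 14 from disease libraries 3, 4 and 5. The cells were chosen by these measured UMIs, so the levels of the gate genes are no result. The 5 droplet libraries (10x Genomics 5′ chemistry) came from enzymatically digested, pooled hearts of mice lacking Pdcd1, the gene of the inhibitory receptor PD-1. Control mice (4 in all, Ctla4+/+Pdcd1-/-) kept the intact second checkpoint gene Ctla4, and disease mice (10 in all, Ctla4+/-Pdcd1-/-), the study's model of immune checkpoint inhibitor myocarditis, had lost 1 copy of it. Both groups therefore lacked Pdcd1, and no library came from mice with Pdcd1 intact. Live nucleated cells (DRAQ5+DAPI-) were sorted with no gate for leukocytes. The genotype fields of libraries 2, 4 and 5 name Pdcd2 or Pdcd3 in place of Pdcd1, so the groups were taken from the library numbers that the study's design text gives. Because hearts were pooled, the library and not the mouse or the cell was the replicate. The labels name no strain, age, sex or sequencing batch, and a batch that followed the groups cannot be told apart from genotype.

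Natural killer (NK) cells are innate lymphocytes that kill infected, transformed or stressed cells without a rearranged antigen receptor. They read the balance between activating receptors, which signal through adaptors such as Tyrobp and Fcer1g, and inhibitory receptors of the Ly49 (Klra) and NKG2A (Klrc1) families that bind MHC class I, and they release perforin, granzymes and interferon-gamma. Type 1 innate lymphoid cells (ILC1) share Ncr1 and Klrb1c with them but are tissue-resident, depend less on Eomes and carry fewer Ly49 receptors, so a gate on Ncr1 and Klrb1c can hold both.

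The gate cells of a library summed to 152971 and 63115 UMIs in control and to 51082, 171296 and 45741 UMIs in disease. The median depth was 5890 and 3295 UMIs per gate cell in control and 3796, 3680 and 3324 in disease, so control 1 was the deepest. RNA of fibroblasts differed strongly between libraries of the same genotype: 5 fibroblast genes together stood at 10374 and 665 CPM (UMIs scaled to a gate total of 1000000) in control and at 18167, 1705 and 568 CPM in disease. At least 3 UMIs over 7 fibroblast and endothelial genes were found in 15 gate cells, and the doublet caller Scrublet marked 8 gate cells. Of 46099 distinct barcodes, 1208 occurred in more than 1 library. They included 2 gate barcodes, whose copies in the other library lay outside the gate and held 0 UMIs of Ncr1 and Klrb1c. Ctla4 was at 39.2 and 0 CPM in the control gate cells and at 0, 58.4 and 0 CPM in the disease gate cells. In CD4 T cells, where Ctla4 is abundant, it was at 554 and 160 CPM in control and at 107, 788 and 685 CPM in disease, so the groups overlapped. Pdcd1 reads were present in gate cells of all 5 libraries, at 464 and 254 CPM in control and 39.2, 356 and 131 CPM in disease. The labels do not say which exons the alleles lack, so these counts check no label.

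The label was checked on markers that the gate did not use. Gzma, a granzyme abundant in resting NK cells, was found in 12 of 24 and 16 of 18 control gate cells and in 9 of 11, 32 of 41 and 9 of 14 disease gate cells. Its level was 2602 and 8588 CPM in control and 7282, 6976 and 8220 CPM in disease, so control 1 stood apart from the other 4. Eomes, the transcription factor that separates NK cells from ILC1, was scarce, with UMIs in 2 of 24 and 7 of 18 control cells and 6 of 11, 9 of 41 and 1 of 14 disease cells. Over all libraries 78 gate cells (72.2%) had a Gzma UMI and 25 (23.1%) had an Eomes UMI. After each cell was thinned to 1000 UMIs the shares were 67.0% and 8.49%, against 0.287% and 0.0637% of endothelial cells, which should lack both genes and had a median of 3049 UMIs against 3832 in the gate. Nkg7 and Ctsw, granule genes, were each found in 106 of the 108 cells, and the pan-leukocyte gene Ptprc in 103. Of 13 T cell genes, Cd4 and Cd6 were at 0 UMIs in the gate, and the 13 together, those limited by the gate included, summed to between 255 and 523 CPM in control and between 333 and 490 CPM in disease. Constant genes of the T cell receptor were present: Trbc1 had 53 UMIs in 38 cells, Trbc2 89 in 36 and Trac 16 in 15. Pooled over libraries, Trbc1 was at 109 CPM in the gate and 150 CPM in CD8 T cells, Trbc2 at 184 and 742 CPM, and Trac at 33.0 and 303 CPM. Lef1, a transcription factor of T cells, had 9 UMIs in 9 cells. Of 10 genes of ILC2 and ILC3, 8 were at 0 UMIs, among them Il22, Il17a and Il13. The exceptions were Areg, with 18 UMIs in 4 cells of control 1, and Calca, with 8 UMIs in 3 cells. Trdv4, a variable segment of the gamma-delta T cell receptor locus singled out after its values were seen, had 54 UMIs in 33 gate cells, and the constant gene Trdc had 6 UMIs in 6 cells. The label thus held for the cytotoxic genes in most cells and for Eomes in a minority.

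Cells near the limits of the gate are described here without a test. The 58 cells that met the other limits with a single UMI of Ncr1 or Klrb1c had Gzma in 44.8% and Eomes in 15.5%. Just inside, the 30 cells with 2 UMIs had Gzma in 56.7% and Eomes in 16.7%. The 78 cells with 3 or more had Gzma in 78.2% and Eomes in 25.6%. Of the gate cells, 95 had no Cd3 UMI and 13 had 1. Only 2 further cells had 2 Cd3 UMIs, and 26 cells with 3 or more Cd3 UMIs included 4 with Gzma.

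Gate cells made up 0.259% and 0.322% of kept cells in control and 0.189%, 0.411% and 0.182% in disease. The disease libraries lay on both sides of the control libraries, and the means were 0.290% ± 0.0447 (SD, n = 2) and 0.261% ± 0.131 (SD, n = 3). An exact two-sided permutation test gave p = 0.9 (0.9 after Benjamini-Hochberg adjustment over the 4 shares tested), where the smallest p that 2 libraries against 3 allow is 0.1. Among cells with a Ptprc UMI, the shares were 0.972% and 2.16% against 1.23%, 0.788% and 0.722% (exact permutation p = 0.3, adjusted 0.533). Read against T cells of the same heart, the gate was 5.48% and 24.0% of all NK gate, CD8 T and CD4 T cells in control and 10.8%, 2.29% and 2.63% in disease (exact permutation p = 0.3, adjusted 0.533). Disease 4 and 5 had the lowest of these shares, and disease 3 lay between the control libraries. CD8 T cells themselves were 4.01% and 0.644% of kept cells in control and 1.19%, 16.2% and 6.25% in disease (exact permutation p = 0.4, adjusted 0.533). They numbered 372 and 36 cells in control and 69, 1614 and 481 in disease. The intervals of the single libraries cover counting error only.

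**Figure D1:**
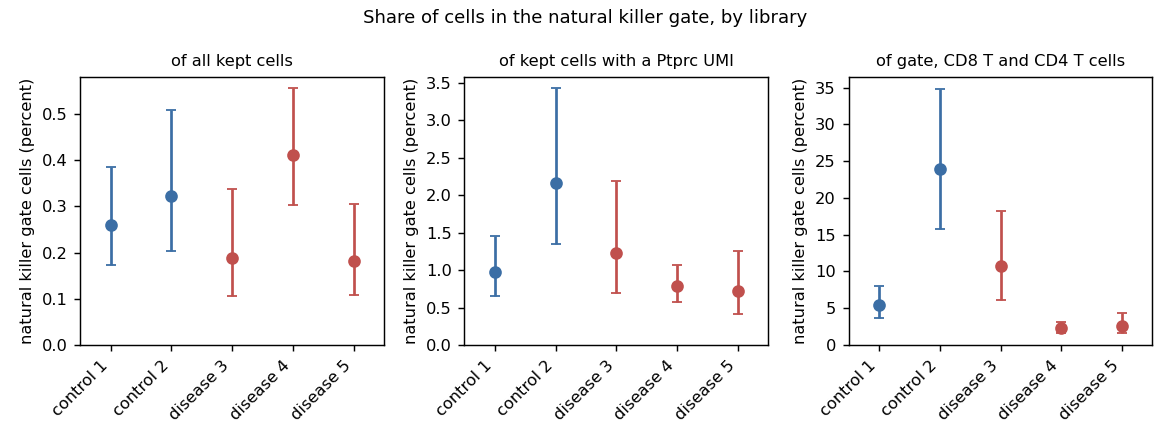
Points give the share of cells in the natural killer gate in each library (percent) and bars the Wilson 95% interval, with control in blue and disease in red. Over all kept cells the 5 libraries lie between 0.182% and 0.411% with control inside the disease range, and over gate, CD8 T and CD4 T cells the share runs from 2.29% in disease 4 to 24.0% in control 2.

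The receptors that set NK cells apart were compared with T cells of the same libraries, with the library as a block. Against CD8 T cells, edgeR's quasi-likelihood test called 124 of 3506 genes higher in the NK gate (3.54%) and 145 lower (4.14%) at a Benjamini-Hochberg adjusted p under 0.05, leaving out the genes of the gates. The split was 156 higher and 112 lower with plain library totals, and 145 and 106 with DESeq2. A gene found in only 1 class passes the count filter through that class and then has to differ, so lists are counted here over the genes that reached the filter's limit of 53.7 CPM in at least 2 libraries of each class. That held for 2318 of the 3506 genes, of which 57 were higher (2.46%) and 55 lower (2.37%). Of 150 genes in 10 lists of NK biology, 73 reached it, of which 15 were higher and 9 lower. The other genes named below with a log2 difference are descriptions. Klra8, which encodes the activating receptor Ly49H in the strains that carry it, stood at 216 and 856 CPM in the control gate cells and at 470, 893 and 678 CPM in the disease gate cells. In CD8 T cells it did not pass 5.34 CPM in any library, a log2 difference of 8.17 ± 0.40 (SE). Klra4 ran from 111 CPM in control 1 to 678 CPM in disease 5, against at most 0.753 CPM in CD8 T cells (log2 difference 10.13 ± 0.42). Klra7 and Klra9 were higher by 6.53 ± 0.62 and 5.71 ± 0.40 on the same scale. Of 12 listed Ly49 genes, 5 had the counts for a test (these 4 and Klra3) and none reached the limit in both classes: Klra4, for example, had 6 UMIs over all CD8 T cells against 196 in the gate. Of the untested ones, Klra5 had 14 UMIs in the gate and 11 in CD8 T cells, Klra1 had 11 and 0, Klra2 had 3 and 24, and Klra17 had 0 and 5. Control 1 had the lowest summed Ly49 level, 883 CPM, where the other libraries lay between 1958 and 2656 CPM. Klra genes are near-identical copies, so reads may be split or lost between them.

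The lectin receptors of the NKG2 and Nkrp1 families followed, with smaller gaps for those that CD8 T cells also carry. Klrk1 (NKG2D, which binds stress ligands) was at 281 and 460 CPM in control and 294, 397 and 481 CPM in disease gate cells, against 29.6 to 113 CPM in CD8 T cells (log2 difference 2.50 ± 0.23, adjusted p = 4.62e-06). Klrc1, the inhibitory NKG2A chain, was higher by 1.59 ± 0.38 (adjusted p = 0.016), and its partner chain Klrd1, at 497 to 928 CPM in the gate, differed by 0.01 ± 0.23 and was not called (adjusted p = 0.997). The inhibitory receptor Klre1 was called higher (2.19 ± 0.28). The activating chain Klrc2 (4.73 ± 0.40) and the inhibitory receptors Klrb1b (7.25 ± 0.41) and Klrg1 (3.75 ± 0.61) did not reach the limit in both classes. In pooled CD8 T cells Klrc2, Klrb1b and Klrg1 were at 10.2, 1.18 and 5.01 CPM. Klrc1 and Klrc2 are close copies and their split is uncertain. Of 11 activating receptors and adaptors at the limit in both classes, 3 were higher (Klrk1 and the integrin chains Itgal and Itgb2) and 3 lower. Klrb1a, a receptor of the Nkrp1 family with 43 UMIs in the gate, had a log2 difference of 7.49 ± 0.73. The adaptors that carry immunoreceptor signals in NK cells were also abundant in the gate: Tyrobp (DAP12) was at 1824 and 2899 CPM in control and 1918, 4378 and 3411 CPM in disease gate cells, and at 17.7 to 39.8 CPM in CD8 T cells (log2 difference 6.52 ± 0.32). Fcer1g lay between 2046 and 3941 CPM in the gate (log2 difference 6.31 ± 0.39). The 3 lower ones serve T cell receptor signalling but are also on this list of NK genes: Lat (-2.25 ± 0.26), Zap70 (-1.24 ± 0.27) and Cd247 (-0.98 ± 0.23). The adaptor Hcst was not called, at 677 CPM in the pooled gate and 714.5 CPM in pooled CD8 T cells. Of 4 inhibitory receptors at the limit in both classes, Klre1 and Klrc1 were higher and the checkpoint gene Tigit was lower (-1.26 ± 0.32, adjusted p = 0.0264). The checkpoint gene Lag3 had a log2 difference of -3.98 ± 0.43. Havcr2 had 0 UMIs in the gate, which makes it at least 31.1-fold lower than the 193 CPM pooled over CD8 T cells, taking 3 counts over the pooled gate as the floor.

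Of 12 granule genes at the limit in both classes, 4 were higher in the gate than in CD8 T cells (Gzma, Serpinb9, Serpinb6b and Ctsw) and 0 were lower. Gzma was higher in the gate in 5 of 5 libraries, at 2602 to 8588 CPM against 9.95 to 740 CPM (log2 difference 4.17 ± 0.65, adjusted p = 0.000655). The granzyme inhibitors Serpinb9 and Serpinb6b, which protect a killer cell from its own granules, were higher by 2.97 ± 0.27 and 2.70 ± 0.25. The protease Ctsw was higher by 1.06 ± 0.24. Gzmc had a log2 difference of 8.05 ± 0.48 but did not reach the limit in both classes. Its 164 UMIs came from 13 cells, with 13.1 and 507 CPM in control and 39.2, 724 and 87.5 CPM in disease gate cells. Other effectors did not pass the test. Gzmb was at 536 and 1268 CPM in control and 979, 1267 and 1836 CPM in disease gate cells, with a log2 difference from CD8 T cells of 1.42 ± 0.43 (adjusted p = 0.0625). Prf1, encoding perforin, differed by 1.08 ± 0.52 (adjusted p = 0.288), Nkg7 by -0.09 ± 0.33 (adjusted p = 0.927) and Fasl by 0.32 ± 0.29 (adjusted p = 0.616). CD8 T cells of control 2 had low levels of these genes (4.97 CPM of Prf1 and 29.8 CPM of Gzmb), and those of disease 4 the highest (474 CPM and 758 CPM). Gzmk, also not at the limit in both classes, had 10 gate UMIs in 4 cells of disease 4 and none elsewhere in the gate (log2 difference -3.76 ± 0.56).

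The NK gate carried abundant RNA of chemokines that draw myeloid cells and T cells. Ccl5 was found in 106 of 108 cells and reached 10022 and 20898 CPM in control and 25586, 18156 and 14342 CPM in disease gate cells, though Ccl5 was also found in 8.62% of thinned endothelial cells (0.448% to 31.4% by library), against 96.2% of thinned gate cells (90.9% to 100%). Ccl5 did not differ from CD8 T cells by the test (log2 difference 0.01 ± 0.46, adjusted p = 0.998). Xcl1, the ligand for cross-presenting dendritic cells, was higher in the gate (2.17 ± 0.40, adjusted p = 0.00239) but varied between libraries, from 153 CPM in disease 5 to 1705 CPM in disease 4. Ccl4 was higher by 1.59 ± 0.43 (adjusted p = 0.036). Ifng was found in 42 cells, at 190 and 111 CPM in control and 411, 269 and 87.5 CPM in disease gate cells, and the difference from CD8 T cells was -0.35 ± 0.32 (adjusted p = 0.61). Ccl3 was found in 30 cells, at 173.5 CPM in the pooled gate and 281.6 CPM in pooled CD8 T cells, and was not called. Ltb was lower (-1.81 ± 0.34). Of 7 cytokine and chemokine genes at the limit in both classes, 2 were thus higher (Xcl1 and Ccl4) and 1 lower (Ltb). Of 12 genes of cytokine receptors and signalling at the limit in both classes, 1, Il2rb, was higher in the gate and 1, Il21r, was lower. Il2rb, the chain shared by the interleukin 2 and 15 receptors, was higher by 0.83 ± 0.24 (adjusted p = 0.0485). The receptor chain genes Il12rb2 (5.56 ± 0.40), Il18rap (2.44 ± 0.35) and Il18r1 (1.31 ± 0.36) did not reach the limit in both classes. They were at 6.56, 26.2 and 42.2 CPM in pooled CD8 T cells. Il12rb2 stood at 203 and 396 CPM in control and 176, 257 and 241 CPM in disease gate cells, against at most 8.03 CPM in CD8 T cells. The chemokine receptor Ccr2 had a log2 difference of 3.72 ± 0.45 but did not reach the limit in both classes, with 14.0 CPM in pooled CD8 T cells. Cxcr6, a residency receptor, was lower (-3.16 ± 0.46).

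Among transcription factors, Irf8 and Tbx21 were higher in the gate and Tox was lower, out of 14 tested, and Irf8 was below the limit in CD8 T cells. Irf8 was at 438 and 951 CPM in control and 333, 245 and 503 CPM in disease gate cells, against 4.97 to 43.5 CPM in CD8 T cells (log2 difference 4.34 ± 0.37). Tbx21 (T-bet) was higher by 1.33 ± 0.29 (adjusted p = 0.00985). Tox was lower by 2.05 on the log2 scale (log2 difference -2.05 ± 0.37, adjusted p = 0.00206). Eomes, at 13.1 and 269 CPM in control and 137, 117 and 21.9 CPM in disease gate cells, was higher than in CD8 T cells in 3 of 5 libraries and was not called (0.84 ± 0.53, adjusted p = 0.448). The integrin gene Itgax, which mouse NK cells share with dendritic cells, was outside the lists and among the largest gaps (5.37 ± 0.44). Of 6 dendritic cell markers, 5 (Flt3, Xcr1, Clec9a, Siglech and Cd209a) were at 0 UMIs in the gate, and the list summed to 78.4 and 15.8 CPM in control and 0, 175 and 109 CPM in disease gate cells. Genes of mature NK cells and of early ones were both present: Itgam was found in 15 cells, Klrg1 in 26, Cma1 in 23 and S1pr5 in 12, and Cd27 in 33 and Il7r in 5. Cd27 was lower than in CD8 T cells (-1.75 ± 0.30).

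Some members of the T cell and cell cycle lists were lower in the gate than in CD8 T cells. Of the T cell genes that the gate did not use, 2 reached the limit in both classes, and Trbc2 was lower while Trbc1 was not called. Cd6 and Themis had 0 UMIs in the gate and were at least 32.0-fold and 16.8-fold lower than in pooled CD8 T cells. Ccr7, the lymph node homing receptor, also had 0 UMIs and was at least 12.6-fold lower. Cd5 had 1 gate UMI, a ratio of 120 in favour of CD8 T cells (exact 95% counting interval 21.5 to 4744), and Nrn1, a further gene with a large gap, had 2 (ratio 108, interval 29.9 to 892). Of 3 cell cycle genes at the limit in both classes, 2 were lower (Hmgb2 and Tubb5). Mki67 had 0 UMIs there and was at least 8.96-fold lower than in CD8 T cells, and 0 of 106 thinned cells had 2 or more UMIs over 5 mitosis genes (Cdk1, Top2a, Mki67, Ccnb2, Birc5), which allows a share of cells with such UMIs of up to 2.83%. This does not limit the share of cycling cells, whose UMIs can go uncaptured at that depth. All 14 tested immediate early and heat shock genes had a log2 difference above 0, against 1580 of the 3506 genes tested, and 5 were called higher (Jun, Fosb, Zfp36, Nr4a1 and Dusp1). These genes also respond to tissue digestion, whose part was not tested. Of 4 tested endothelial markers, 4 also had a log2 difference above 0 and 0 were called, and the 5 listed ones summed to 1156 to 2550 CPM in the gate and 328 to 1386 CPM in CD8 T cells. Without the cells holding at least 3 stromal UMIs, 12 of the 14 early genes were above 0 and 5 were called (Jun, Zfp36, Ier2, Nr4a1 and Dusp1).

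Some of the smaller differences from CD8 T cells depended on single libraries. Leaving out disease 4 ended the calls of Ccl4 (1.76), Il2rb (0.89), Tigit (-1.25), Zap70 (-1.21) and Cd247 (-1.08). Leaving out control 1 ended those of Ccl4 (1.84), Il2rb (0.92), Klrc1 (1.48), Tigit (-1.01), Zap70 (-1.11) and Cd247 (-0.86), and leaving out disease 5 those of Il2rb (0.73), Klrc1 (1.61), Tigit (-1.30) and Cd247 (-0.93). Ccl4 was also not called without control 2 (1.25) or disease 3 (1.17), and Gzmb was called without control 2 (0.94).

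Against CD4 T cells, 116 of 2524 genes were higher in the gate (4.6%) and 118 lower (4.68%) by the same edgeR test. Here 1535 genes reached the filter's limit of 83.5 CPM in at least 2 libraries of each class, of which 44 were higher (2.87%) and 35 lower (2.28%). No Ly49 gene was among them, as the 5 tested ones had 0 to 2 UMIs over all CD4 T cells. Klra8 had 0 UMIs in CD4 T cells and was at least 224-fold higher in the gate, and Klra4 at least 149-fold. Klre1 and Klrc1 had 1 and 3 UMIs in CD4 T cells, giving ratios of 430 (exact 95% counting interval 76.3 to 17080) and 150 (50.7 to 735). Of 8 granule genes at the limit in both classes, 5 were higher in the gate (Nkg7, Ctsc, Ctsd, Serpinb9 and Ctsw). Nkg7 was higher by 1.80 ± 0.43 (adjusted p = 0.0156), and Il2rb by 1.87 ± 0.21. Gzma (log2 difference 6.99 ± 0.59), Gzmb (5.43 ± 0.34), Prf1 (5.00 ± 0.47), Tbx21 (1.96 ± 0.31) and Klrk1 (4.86 ± 0.36) did not reach the limit in both classes. In pooled CD4 T cells these 5 were at 57.2, 25.4, 13.6, 60.8 and 11.8 CPM. Eomes had 47 UMIs in the gate and 3 in CD4 T cells, a ratio of 35.7 (interval 11.5 to 179). Of 2 genes of the T cell list at the limit in both classes, Trbc2 was lower in the gate. Ctla4 was lower by 4.18 on the log2 scale (-4.18 ± 0.40), and Il7r (-3.69 ± 0.64) and Tcf7 (-2.68 ± 0.58), both also on the list of early NK genes, were lower too. Ctla4, Il7r and Tcf7 did not reach the limit in both classes. Gata3, a transcription factor of helper T cells, was not called (1.10 ± 0.46, adjusted p = 0.186). Nkg7 was not called without control 1 (1.75) or disease 4 (2.03), nor Tcf7 without control 2 (-2.33) or disease 4 (-3.20). Tnfrsf4 (OX40) had 1 UMI in the gate, a ratio of 278 in favour of CD4 T cells (interval 49.7 to 11000), and Cd40lg, Izumo1r and Tbc1d4 had 0.

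**Figure D2:**
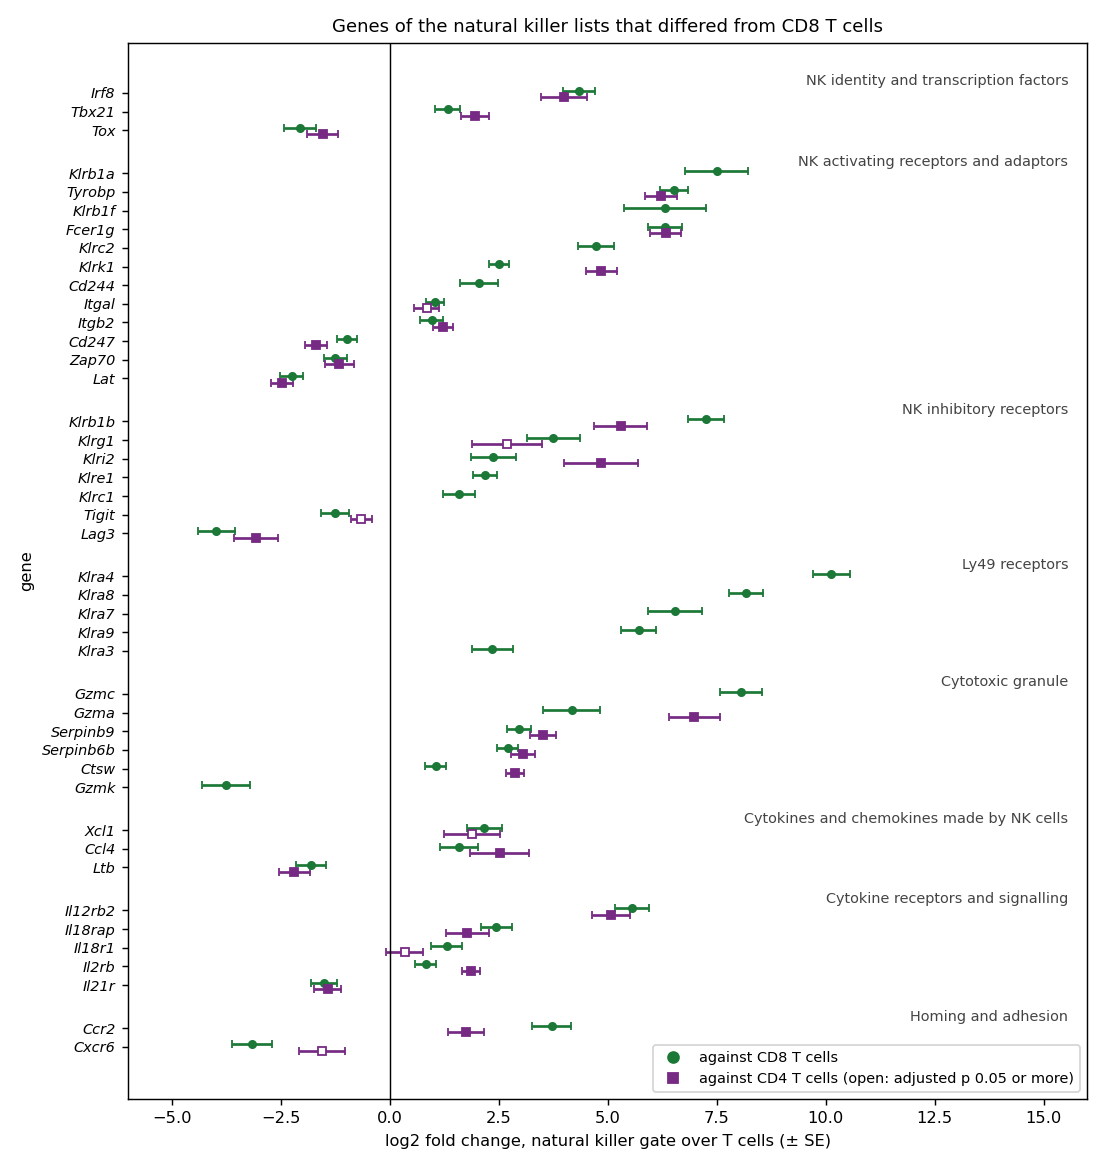
Points give the log2 fold change (x axis) of the natural killer gate over CD8 T cells (circles) and CD4 T cells (squares) with the standard error as bars, for genes of the NK lists that were called against CD8 T cells, had more than 3 UMIs in each class plotted and are reported here. Ly49 receptors and the adaptors Tyrobp (6.52) and Fcer1g (6.31) lie far to the right, while Lat (-2.25), Lag3 (-3.98) and Gzmk (-3.76) lie left of 0. Of these, all but Lat did not reach the filter's limit in both the gate and CD8 T cells.

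The gate was then divided by 6 ILC1 genes: Cxcr6, Itga1, Il7r, Tmem176a, Tmem176b and Cd200r1. At least 2 UMIs of them were found in 32 cells (12 and 3 in control, 3, 10 and 4 in disease), 1 UMI in 20 and none in 56. As shares of the gate, the 32 cells were 50.0% and 16.7% in control and 27.3%, 24.4% and 28.6% in disease (exact permutation p = 0.7). Control 1, the deepest library, had the highest share. Eomes was found in 1 of the 32 cells and in 18 of the 56. Gzma was found in 10 of 32 (31.2%) and 51 of 56 (91.1%), Klra8 in 4 (12.5%) and 35 (62.5%), and Klra4 in 2 and 22. Ly49 genes were not uniform: of 4 tested between these parts by edgeR 0 were called, and Klra9 differed by only -0.30 ± 0.53 (adjusted p = 0.928). Of 10 late maturation genes, Klrg1, Cma1, S1pr5 and Itgam were found in 0 of the 32 cells and in 17, 18, 10 and 9 of the 56. The count of 0 allows a share of cells with a UMI of up to 9.38% for each (3 of 32). Late genes did not all follow: of 3 tested between the parts by edgeR, 1 had a log2 difference above 0, Ly6c2 (0.29 ± 0.76, not called). Gzmb (14 of 32 against 43 of 56) and Prf1 (9 against 34) were also found in a smaller share of the 32 cells. Those cells were the deeper ones, with a median of 4240 UMIs against 3098.

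Other genes were found in a larger share of the cells with ILC1 genes. Xcl1 was in 28 of 32 cells (87.5%) against 20 of 56 (35.7%), Inpp4b in 18 against 4, Cxcr3 and Cd226 each in 15 against 5, Tnf in 12 against 3, and Gzmc in 12 against 0. Klrc1 was in 24 of 32 cells and 24 of 56. The greater depth of these cells moves in the same direction as these shares, and its part was not tested. For Gzma, Klra8, Eomes, Gzmb, Prf1, Klrg1 and Cma1 the share was lower in the cells with ILC1 genes in 5 of 5 libraries. For Xcl1, Inpp4b, Klrc1 and Gzmc it was higher in 5 of 5. Itga1 also marks endothelium (32.6% of thinned endothelial cells), and 8 of the 32 cells, against 6 of the 56, held at least 3 stromal UMIs. Without those cells Gzma was found in 8 of 24 against 45 of 50, and without Itga1 in the definition in 5 of 25 against 64 of 71. The summed counts of the parts were compared by edgeR with the library as a block. Of 620 genes tested, 2 were higher (0.323%) and 3 lower (0.484%) in the cells with ILC1 genes. These counts were not limited to genes found in both parts. Gzmc, among the 2 higher, passed the count filter through the 32 cells alone and so had to differ. Gzma was at 0 to 1113 CPM in the 32 cells and 3014 to 14620 CPM in the 56 (log2 difference -4.25 ± 0.65, adjusted p = 0.0282). Irf8 (-3.19 ± 0.47) and the integrin gene Itga4 (-2.68 ± 0.42) were also lower, and Cd7, a surface receptor of early NK cells, was higher (1.37 ± 0.22, adjusted p = 0.0282). Trbc2, the 1 gene of the T cell list tested here, was higher in 5 of 5 libraries but not called (1.60 ± 0.50, adjusted p = 0.197). Pdcd1 (2.36 ± 0.54) and Thy1 (1.20 ± 0.46) were also higher in 5 of 5 and not called. Cxcr6, among the 6 dividing genes, was at 62.0 CPM in the pooled gate and 734 CPM in pooled CD8 T cells. The part of T cells in this was not tested. Gzmc had 105 UMIs against 0, at least 39.5-fold over the floor of 3 counts, but 2 cells, with 59 and 24 UMIs, held 83 of the 105. The bound was 12.7-fold without disease 4 and 26.2-fold without control 2, and 1 further cell with 59 Gzmc UMIs had a single UMI of the ILC1 genes and was in neither part. No gene was called when any 1 of control 1, control 2, disease 4 or disease 5 was left out, and 5 were higher and 4 lower without disease 3. The log2 differences without each of those 4 libraries ran from -5.01 to -3.92 for Gzma, -3.57 to -2.83 for Irf8, -2.85 to -2.42 for Itga4 and 1.31 to 1.47 for Cd7.

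**Figure D3:**
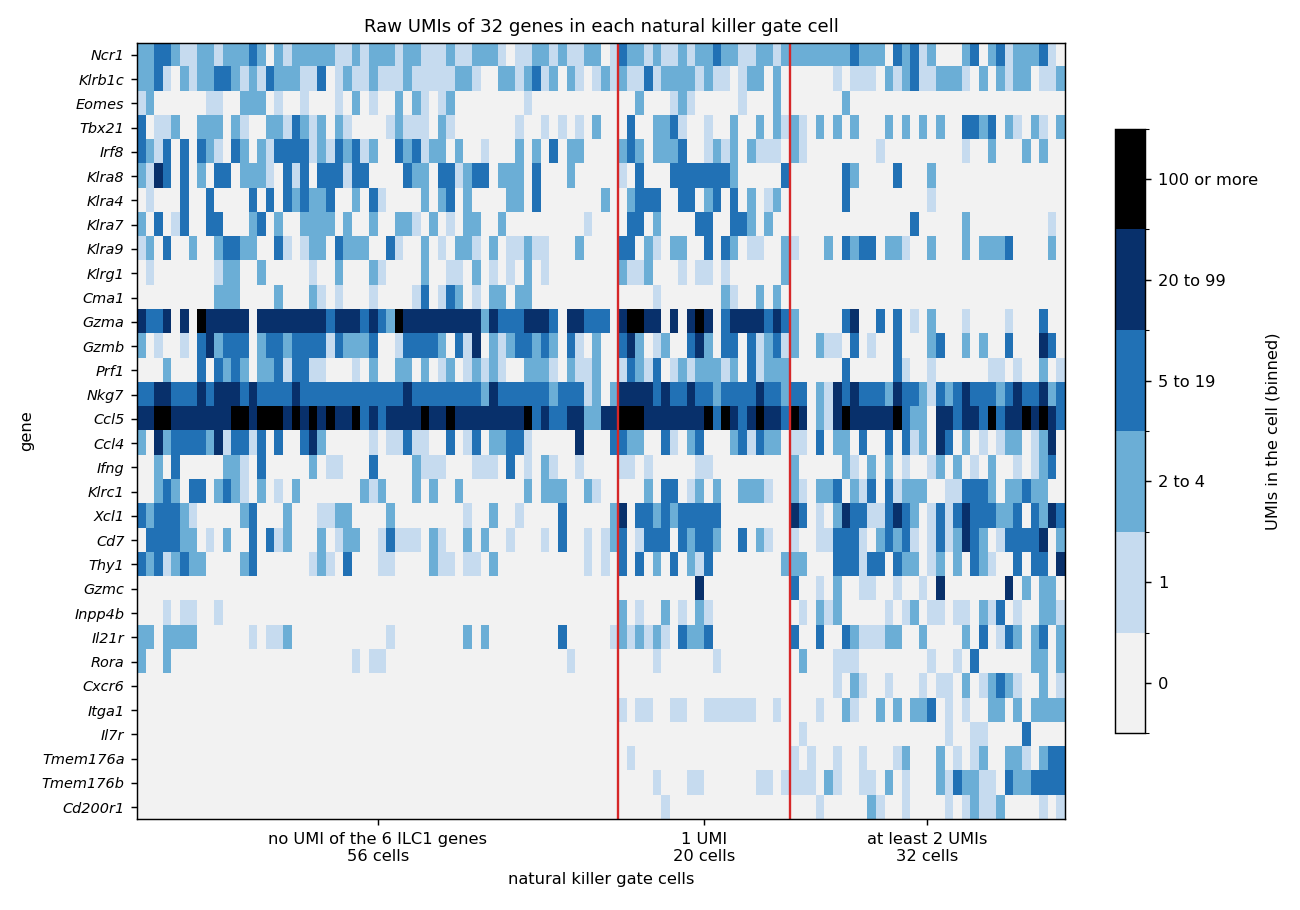
Each column is 1 of the 108 natural killer gate cells, each row a gene, and the shade gives the binned raw UMIs; red lines divide cells with 0, 1 and at least 2 UMIs over the bottom 6 genes. Gzma is in 51 and Klra8 in 35 of the 56 cells on the left, and in 10 and 4 of the 32 on the right, where Xcl1 (28 cells), Cd7 (26) and Inpp4b (18) are frequent.

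**Figure D4:**
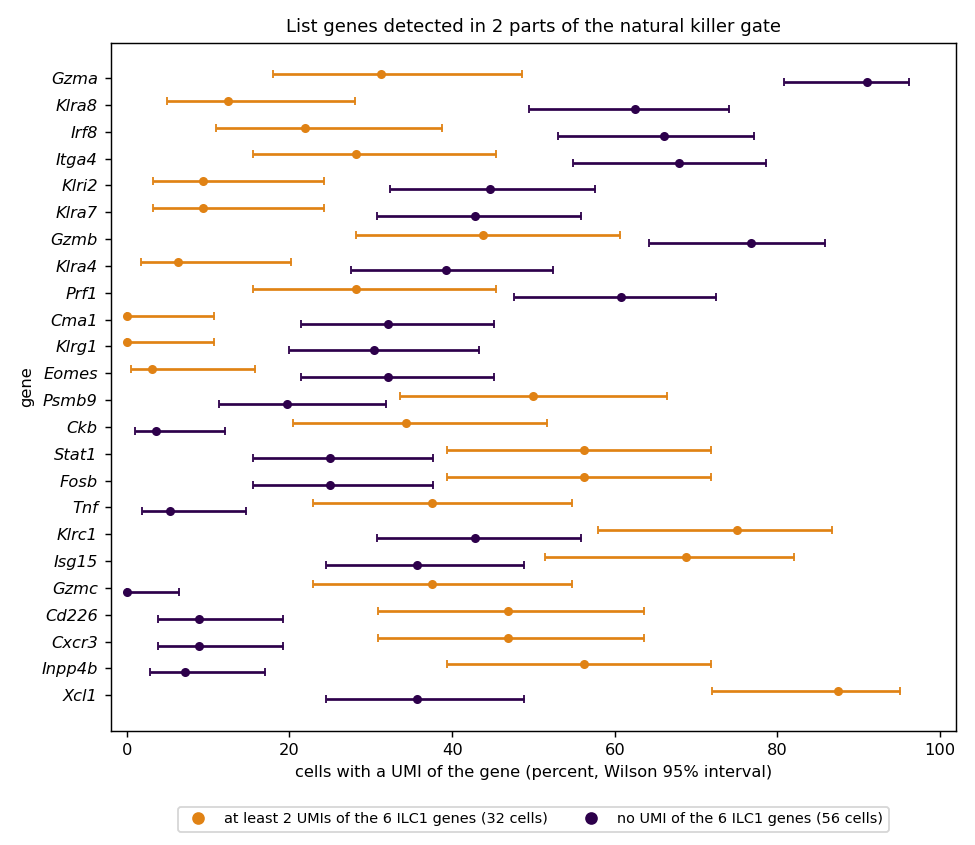
Points give the percent of cells with a UMI of each gene and bars the Wilson 95% interval, for the 32 cells with at least 2 UMIs of the 6 ILC1 genes (orange) and the 56 with none (dark), for 12 list genes with large gaps in each direction. Gzma stands at 31.2% against 91.1% and Xcl1 at 87.5% against 35.7%.

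Between genotypes, no gene was higher and 25 of 986 tested genes (2.54%) were lower in the gate cells of disease hearts by edgeR's quasi-likelihood test with Benjamini-Hochberg adjustment. At an unadjusted p under 0.05 there were 128 genes (13%) in either direction, and DESeq2 called 0 higher and 35 lower. None of the 25 is a receptor, granule or cytokine gene of NK cells. The largest fall was in Pfn1, encoding the actin-binding protein profilin, from 3962 and 4753 CPM in control to 137, 111 and 65.6 CPM in disease (log2 difference -5.44 ± 0.34, adjusted p = 0.0013). Rps2, a ribosomal protein gene, fell from 3648 and 2995 CPM to 313, 216 and 328 CPM (-3.67 ± 0.29, adjusted p = 0.00217). Ptpn18, a phosphatase gene, fell from 615 and 586 CPM to 39.2, 11.7 and 21.9 CPM (-4.94 ± 0.49), and Ndfip1, an adaptor of ubiquitin ligases, fell as well (-4.26 ± 0.39). The respiratory chain gene Cox5b also fell (-4.56 ± 0.84, adjusted p = 0.0481). Its partner gene Cox5a had 53 and 28 UMIs in control and 1, 2 and 0 in disease, a pooled ratio of 33.5 in favour of control (exact 95% counting interval 11.1 to 166). The 3 called genes of the gene lists were the MHC class I heavy chain genes H2-D1 and H2-K1 and the transcription factor gene Jund. H2-D1, whose product is a ligand of Ly49 receptors, was at 3903 and 4056 CPM in control and 548, 584 and 503 CPM in disease (-2.96 ± 0.22, adjusted p = 0.00198). H2-K1 was at 4275 and 4547 CPM against 1644, 765 and 918 CPM (-2.08 ± 0.39, adjusted p = 0.049). B2m, the light chain that pairs with both, was at 2831 and 2583 CPM in control and 1781, 4419 and 2842 CPM in disease, so its groups overlapped. H2-D1 and H2-K1 are similar in sequence and their reads may be shared.

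Of the 66 tested genes of the 10 NK lists, 0 were called between genotypes by edgeR, which lies close to the background of 2.54% over all tested genes. An unadjusted p under 0.05 was found for 3 (4.55%, against 13% of all tested genes), with a median log2 difference of 0.19 against 0.03 over all genes tested. Groups did not overlap for 4 of these genes with disease higher and 5 with disease lower, where the background over all tested genes was 14.6% and 17.2%. Tbx21, one of these, was at 458 and 570 CPM in control and 235, 117 and 175 CPM in disease (log2 difference -1.69 ± 0.41, adjusted p = 0.0957). Gzma differed by 0.32 ± 0.46, Gzmb by 0.49 ± 0.43, Prf1 by 0.34 ± 0.58 and Ifng by 0.65 ± 0.63, with adjusted p between 0.791 and 0.899. Klra7 was at 163 and 254 CPM in control and 568, 374 and 262 CPM in disease (0.90, adjusted p = 0.555), and Itgb1 at 379 and 539 CPM against 137, 175 and 153 CPM (-1.62, adjusted p = 0.0602). Shares of thinned cells with a UMI were tested for 14 genes and for cycling, and every adjusted p was 1. Klrg1 was the only one of the 14 genes whose groups did not overlap, with 0 of 24 and 0 of 18 thinned control cells and 2 of 11, 7 of 40 and 1 of 13 disease cells (exact permutation p = 0.2, adjusted 1). With all UMIs the groups overlapped: Klrg1 was found in 8.33% and 22.2% of control cells and in 45.5%, 34.1% and 7.14% of disease cells.

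The falls were read beside CD8 T cells of the same libraries. Both classes came from the same libraries, so they share what differed between those. All 25 genes had a log2 difference below 0 in CD8 T cells, as had 4649 of the 9912 genes tested there (46.9%), and 17 of them were called lower there, where 348 of 9912 genes (3.51%) were called lower. Pfn1 (log2 difference -4.27) and H2-D1 (-2.55) fell in CD8 T cells, while H2-K1 (-1.36, adjusted p = 0.318) and Jund (-1.16, adjusted p = 0.102) were not called there. The difference between the genotype effects of both classes was tested directly, and 0 of 3513 genes passed in either direction (60, or 1.71%, at an unadjusted p under 0.05, and 0 by DESeq2). The median SE of that difference was 0.57 (log2) over the 25 genes and 0.73 over all genes tested, so this does not show that the classes responded alike. The 25 genes had a median of 60.8% G and C in the first 300 bases of their transcripts, against 55.7% over all tested genes, and 9 of them were called once that content entered the fit, not including H2-K1, Jund and Cox5b. The part of this base composition in the falls was otherwise not tested, and 5′ reads start in those bases. Only 1 of the 25 was called without disease 5, and 13, 11, 24 and 12 were called without control 1, control 2, disease 3 and disease 4. The log2 differences stayed below 0 for all 25 in each of these fits. Without disease 5, where only Pfn1 was called, they were 0.863 to 1.04 times those with all libraries, as for Ptpn18 (-4.79), Rps2 (-3.60), Jund (-3.65) and H2-D1 (-2.72). In a fit of the 56 cells without ILC1 genes, 14 of the 25 were among the 20 genes called.

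**Figure D5:**
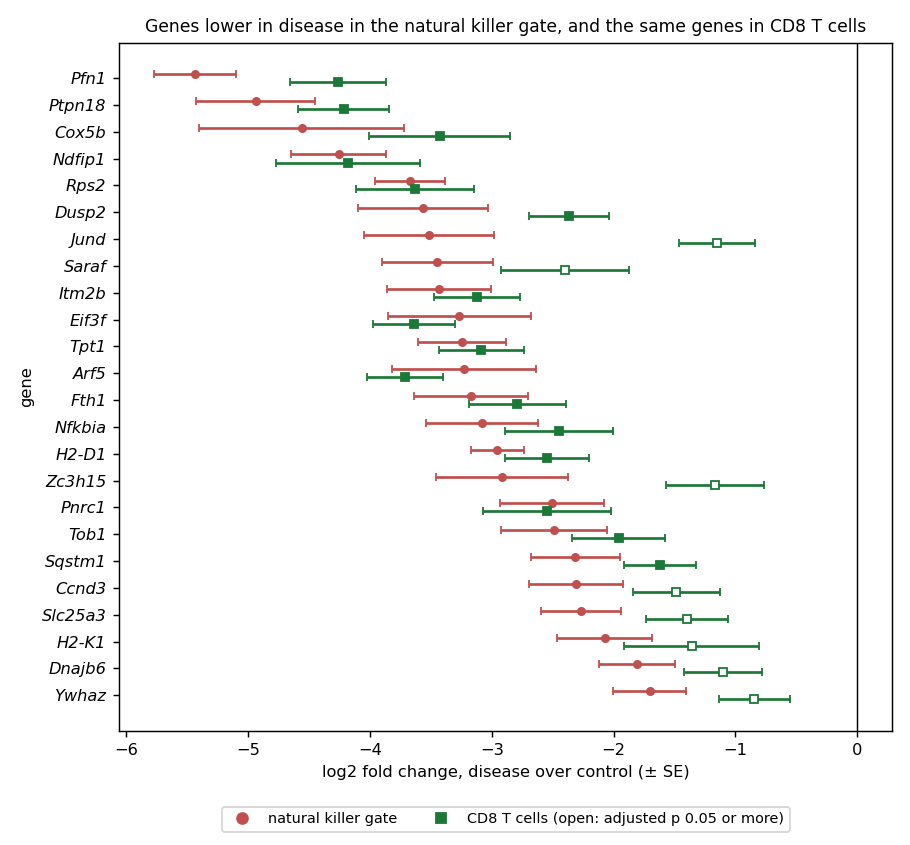
Points give the log2 fold change of disease over control with its standard error, in the natural killer gate (circles) and in CD8 T cells (squares, open where the adjusted p was 0.05 or more), for the called genes other than Cox5a, which had 3 UMIs in disease. All lie below 0 in both classes, from Pfn1 (-5.44 in the gate, -4.27 in CD8 T cells) to -1.70 in the gate for Ywhaz, the smallest fall.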

How the data were processed

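The deposited files hold UMI counts per gene and barcode, and per the file headers the authors counted them with Cell Ranger 3.1.0. The submitters' processing notes also name Seurat 3 and the builds mm10 and GRCh38, with no role given. Of 47319 barcodes, the 38337 with at most 10% mitochondrial UMIs were kept. Doublets were not removed, and removing Scrublet calls was an alternative. Counts were summed per library and class, and tested with edgeR 4.0.16 (quasi-likelihood F test, TMM scaling, filterByExpr, Benjamini-Hochberg adjustment over all tested genes, threshold 0.05) in R 4.3.3. Comparisons of classes had the library as a block, since both classes came from the same library. Shares were compared by exact two-sided permutation over the 10 splits of 5 libraries, after thinning cells to 1000 UMIs where stated, which left out 2 gate cells. CD8 T cells had at least 2 Cd3 and 2 Cd8 UMIs and no Cd4, and CD4 T cells at least 2 Cd3 UMIs, a Cd4 UMI and no Cd8. Both classes were also limited to 1 UMI of Ncr1 and Klrb1c together and 1 over the B cell and macrophage genes. T cells with more RNA of Ncr1 or Klrb1c were therefore left out of the comparisons. Intervals (Wilson, 95%) cover counting error only, and with 11 to 41 gate cells per library they are wide. p-values measure the spread between libraries. Alternatives were DESeq2 1.42.0, plain library totals, no filter, stricter gates, equal cell numbers, an offset for base composition from GENCODE M21, and leaving out each library. The code was tested on simulated data.

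Genes could be named from the gene lists. Beyond them, the 6 largest changes past the threshold whose groups did not overlap were named between genotypes, and the 10 highest and 6 lowest log2 differences between classes, with the same direction in every library. The members and lists were chosen with earlier results of these data known. The ILC1 comparison was planned for libraries with 10 cells in both parts. Only disease 4 had them, so all 5 libraries were used, a choice made after seeing the data. Counting lists over genes at the filter limit in both classes was also chosen after seeing the data. Klra13-ps had no match in the files. A few genes of the lists are not reported here.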

Additional observations from a re-analysis of the deposited data

How the results depend on the processing

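No paired analysis was possible because the genotype groups share no replicate number. With 108 cells in 5 libraries, 986 genes had the counts for a test between genotypes, and genes with fewer were not tested. Between genotypes, the higher and lower calls (0 and 25) became 5 and 98 with every gene with at least 1 count, 1 and 42 without Scrublet calls, and 1 and 65 without the 15 cells holding stromal UMIs, an alternative chosen after seeing the data that kept all 25. The lower calls became 14 with the stricter gate and 9 with the base composition offset. Leaving out each library gave 0 to 1 higher and 1 to 79 lower, and 0 to 1 higher for the difference from CD8 T cells. Against CD8 T cells, the calls became 59 and 46 with no replicate block (57 and 45 shared with 124 and 145), 381 lower with every gene with at least 1 count, and 56 to 144 higher and 80 to 162 lower leaving out each library, with the lowest counts without disease 4. Against CD4 T cells they became 58 and 51 with no replicate block, 302 lower with every gene with at least 1 count, and 53 to 131 higher and 51 to 122 lower leaving out each library, again lowest without disease 4. In the ILC1 comparison, the 2 higher and 3 lower genes became 0 and 0 with at least 1 UMI as the limit, 5 and 6 with DESeq2, 6 and 17 with every gene with at least 1 count, 0 and 1 with no replicate block, 6 and 13 without Itga1, 10 and 15 without cells holding stromal UMIs, and 0 to 5 and 0 to 4 leaving out each library. The causes of these shifts were not tested. Uncalled log2 differences from CD8 T cells changed sign for Nkg7 (0.0791 with plain library totals, 0.0329 without stromal cells, -0.452 to 0.0835 leaving out each library) and for Ccl5 (-0.28 with every gene with at least 1 count, -0.0793 with no replicate block, -0.472 to 0.311 leaving out each library). The disease minus control difference in the share of kept cells ran from -0.105 to 0.0212 percentage points over its alternatives, and no exact p was below 0.3.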
